A study of Homo sapiens with 4 samples.

Results

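TM4SF1 and 9 related membrane protein genes were examined in migrating and non-migrating HCT116 colon cancer cells. The 10 members are 3 genes of the L6 family (TM4SF1, TM4SF4 and TM4SF5) and 7 tetraspanin genes (CD9, CD63, CD81, CD82, CD151, TSPAN1 and TSPAN8). The set was picked on the values of these same arrays, because TM4SF1 has one of the largest MG/non-MG ratios with each treatment. All 10 members have a probe on the array. For 7 of them at least 1 probe was flagged as well above background on every array, a mark that Agilent's software gives to spots clearly brighter than background, among 15707 genes or unnamed transcripts that met this condition out of 40909 with a probe.

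L6 proteins and tetraspanins each cross the cell membrane 4 times and have a small and a large loop outside the cell, but the families are not closely related in sequence. Tetraspanins gather integrins, growth factor receptors and proteases into shared patches of membrane, and CD9, CD63 and CD81 are the usual markers of exosomes, the small vesicles that cells release from endosomes. TM4SF1 is abundant in many carcinomas and in endothelium, where it is found in thin protrusions of the membrane. In studies of colorectal and other carcinoma cells, CD82 and CD9 are known mostly as brakes on cell movement, and TSPAN8, CD151 and TM4SF1 mostly as promoters of it.

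HCT116 is an established human colorectal carcinoma line. The MG cells are its subpopulation enriched by repeated passage through the membrane of a transwell chamber, and the non-MG cells are the subpopulation that stayed behind. Each received 5 µM of 5-azacytidine, an inhibitor of DNA methyltransferases, or vehicle for 48 h, and 400 ng of total RNA was labelled for a one-colour Agilent SurePrint G3 array. The 4 conditions (non-MG vehicle, non-MG 5-azacytidine, MG vehicle and MG 5-azacytidine) have 1 array each, from 1 MG and 1 non-MG population, so nothing was replicated and no test could be run.

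Of 50594 probes, between 21382 and 21881 were well above background on an array, the lowest intensity of such a probe lay between 9.95 and 11.8, and 0 probes were saturated. A level is the log2 of the background-corrected intensity minus the 75th percentile of the array, and a difference between 2 arrays is called where it passes 1.5-fold, which is 0.585 on the log2 scale. The error given after ± is the spot error, the spread between spots of probes printed 10 times at the same brightness. Culture, extraction and labelling add variation that it does not cover. The non-MG arrays lay in row 1 and the MG arrays in row 2 of the slide, with vehicle in column 3 and 5-azacytidine in column 4, so effects of slide position and of cell type or treatment cannot be told apart. Of 12 epithelial markers, 11 were well above background on all arrays and VIL1 on none, with a summed intensity from 98623 to 119048. Of 6 fibroblast markers only COL1A1 was above background (summed intensity of the list from 74.2 to 106), and of the blood and endothelial markers CD14 and VWF were above it on all arrays and PTPRC, CD3E, HBB, PECAM1 and CDH5 on none. In such bulk RNA, fewer cells with a transcript and less of it per cell cannot be told apart.

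The promoters of the genes with the largest differences are shown because the drug inhibits DNA methyltransferases, which methylate the C of CG pairs. These arrays do not measure methylation. Each line holds the 250 bases before the annotated start, 5′ to 3′ on the gene's strand, from RefSeq for GRCh38.p14, with every CG in capitals. TM4SF1 (chr3:149377650-149377899, minus strand), TM4SF18 (chr3:149333637-149333886, minus) and TSPAN8 (chr12:71158000-71158249, minus) were higher in MG cells, TSPAN1 (chr1:46174837-46175086, plus) was lower, and CD82 (chr11:44565413-44565662, plus) is given for contrast.
TM4SF1: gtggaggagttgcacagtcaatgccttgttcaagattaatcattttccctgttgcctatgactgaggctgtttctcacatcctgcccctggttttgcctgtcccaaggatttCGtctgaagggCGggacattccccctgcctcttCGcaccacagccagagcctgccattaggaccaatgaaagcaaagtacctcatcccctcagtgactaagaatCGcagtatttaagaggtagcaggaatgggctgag
TM4SF18: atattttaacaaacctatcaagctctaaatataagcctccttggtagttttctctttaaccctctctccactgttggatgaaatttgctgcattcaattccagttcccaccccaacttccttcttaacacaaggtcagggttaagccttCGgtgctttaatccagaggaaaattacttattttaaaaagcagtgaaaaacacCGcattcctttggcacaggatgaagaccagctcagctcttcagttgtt
TSPAN8: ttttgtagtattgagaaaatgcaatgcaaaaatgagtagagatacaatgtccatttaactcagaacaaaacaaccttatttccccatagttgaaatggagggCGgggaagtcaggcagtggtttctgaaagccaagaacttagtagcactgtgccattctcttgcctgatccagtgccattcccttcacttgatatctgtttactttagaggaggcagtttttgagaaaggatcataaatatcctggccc
TSPAN1: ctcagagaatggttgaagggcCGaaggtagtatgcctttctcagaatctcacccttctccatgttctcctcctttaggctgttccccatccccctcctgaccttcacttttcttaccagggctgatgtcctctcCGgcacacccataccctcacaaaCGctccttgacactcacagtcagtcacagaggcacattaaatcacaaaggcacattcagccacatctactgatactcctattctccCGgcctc
CD82: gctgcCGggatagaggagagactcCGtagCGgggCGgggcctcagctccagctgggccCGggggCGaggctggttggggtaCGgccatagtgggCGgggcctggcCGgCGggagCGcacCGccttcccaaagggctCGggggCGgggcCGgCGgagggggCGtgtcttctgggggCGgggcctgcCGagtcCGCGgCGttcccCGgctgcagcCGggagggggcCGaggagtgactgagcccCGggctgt

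The TM4SF1, TM4SF18, TSPAN8 and TSPAN1 windows hold few CG pairs, with 4 in TM4SF1, 2 in TM4SF18, 1 in the TSPAN8 window shown and 4 in TSPAN1. CD82 holds 26. Over all 35116 windows of this length the median was 11 CG, with quartiles of 3 and 23. RefSeq promoter windows were matched for 8 of the 10 members. TM4SF4 holds 4 CG and TM4SF5 holds 3. CD9 has 4 listed starts with 1 to 29 CG, and CD63 has 8 with 4 to 30. Short motifs were counted on either strand after the sequences had been seen. GGAATG, the core of the sequence that TEAD factors bind, occurs at 2 places in the TM4SF1 window, at 1 in TM4SF18 and at 1 in the TSPAN8 window shown, and at 0 in TSPAN1 and CD82. The other TSPAN8 start, with 2 CG, has 0, and 1 of the 8 CD63 windows has 1. The window of TM4SF19, an L6 gene with a probe that was higher in MG cells, has 0. The printed windows were picked by the differences of their genes, so nothing is read from these counts. It is present in 11.9% of all windows. CACCTG, an E-box bound by ZEB1 and SNAI1 and held by 17.5% of all windows, is in none of the 5 printed here, nor are TGANTCA, an AP-1 motif (6.57%), and TATAAA (10.7%). TGANTCA does occur in the TM4SF19 window and in a CD63 window. A match is a run of letters and not a measured site.

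TM4SF1 was several-fold brighter on both MG arrays than on both non-MG arrays. Its main probe, A_33_P3390057, had an intensity of 21.3 in non-MG cells with vehicle, 23.1 in non-MG cells with 5-azacytidine, 117 in MG cells with vehicle and 122 in MG cells with 5-azacytidine. The levels were -2.03, -1.70, 0.24 and 0.34 in the same order. Within a cell type the 2 treatments lay close together. The log2 MG/non-MG ratio was 2.27 ± 0.22 with vehicle, or 4.83-fold, and 2.04 ± 0.21 with 5-azacytidine, or 4.11-fold. These are the values that chose the gene, and they rank 7 and 16 from the highest among the 15707 genes measured on all 4 arrays. Genes detected in MG cells only, such as TSPAN8, are not in this ranking. The non-MG signals of TM4SF1 are dim, and the size of its ratio moved with the processing. The normexp correction used here adds an offset of 50 to every intensity, more than these non-MG signals. It therefore shrinks ratios of dim probes by design, here and for the dim genes below. Correction and offset were not run apart. With normexp correction the log2 ratio of TM4SF1 was 0.90 with vehicle and 0.78 with 5-azacytidine, still past 1.5-fold.

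The second TM4SF1 probe, A_32_P231617, gave the same direction. Its intensity was 2.17 and 2.29 on the non-MG arrays, where it was not well above background, and 25.6 and 28.2 on the MG arrays, where it was. Only a bound can be given for such a probe, from the lowest signal that counted as well above background on the dim array. By it, TM4SF1 was at least 2.25-fold higher in MG cells with vehicle and at least 2.21-fold higher with 5-azacytidine. At the edge of the filter, the main TM4SF1 probe is the dimmest member probe to pass on all arrays (21.3), and this second probe and TSPAN8 lie below it on the non-MG arrays, at 2.05 to 2.29.

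**Figure D1:**
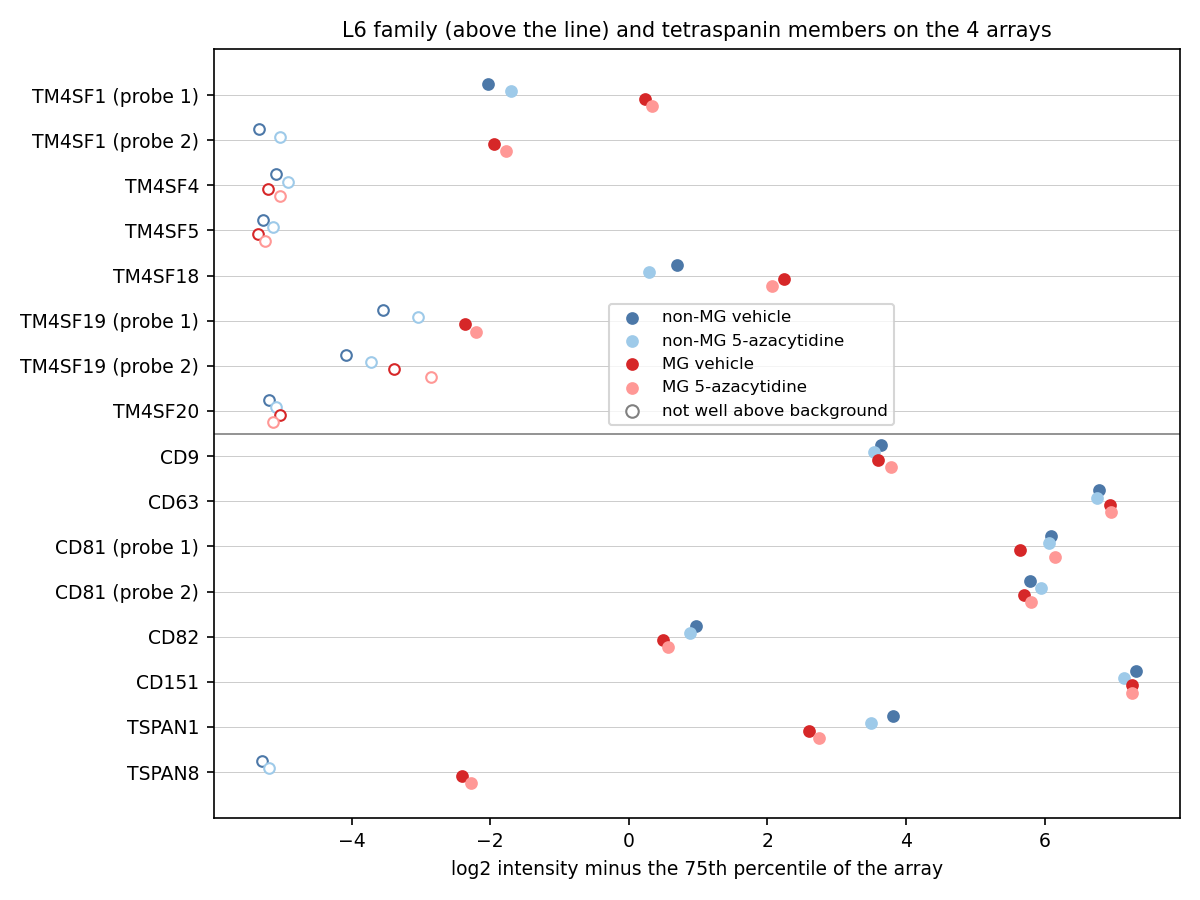
Level of every L6 family and tetraspanin member probe on the 4 arrays, with TM4SF18, TM4SF19 and TM4SF20 added (horizontal axis, log2 intensity minus the 75th percentile of the array). Blue points are non-MG and red points MG cells, pale with 5-azacytidine, and open circles are not well above background. TM4SF1, TM4SF18, TM4SF19, TSPAN8 and, by less, CD63 have both red points to the right of both blue points, and TSPAN1 and, by less, CD82 have them to the left. How many of all genes are ordered in these ways was not counted.

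The other L6 genes were mostly silent or dim. TM4SF4, a hepatic and intestinal member, had intensities from 2.48 to 2.94 and stayed near background on all arrays. TM4SF5, also described mainly in liver, had 2.13 to 2.54 and was not above background either. No ratio is given for them.

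TM4SF18, a little-studied L6 gene next to TM4SF1 on chromosome 3, was also brighter in MG cells. It was not among the members and was found through a list of the remaining family. Its intensity was 141 in non-MG cells with vehicle and 92.3 with 5-azacytidine. In MG cells it was 465 with vehicle and 402 with 5-azacytidine. The log2 MG/non-MG ratio was 1.54 ± 0.10 with vehicle and 1.76 ± 0.11 with 5-azacytidine, and 1.27 and 1.21 with normexp correction. TM4SF19 has a probe that was above background on the MG arrays alone, at 19.1 and 21.0 against 7.46 and 9.17. It was at least 1.68-fold higher in MG cells with vehicle and at least 1.65-fold higher with 5-azacytidine. The other TM4SF19 probe and TM4SF20 did not reach that flag on any array.

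The genes around TM4SF1 were then read in their order on chromosome 3, a view chosen after its values were seen. Among the 6 genes with a probe on each side, TM4SF18 lies next to TM4SF1 on one side, and TM4SF1-AS1 and TM4SF4 follow on the other, neither of them above background. GYG1, which primes glycogen synthesis, HLTF, a DNA helicase, and HPS3, of a complex for lysosome-related organelles, lie beyond TM4SF18. Their probes had log2 ratios between -0.15 and 0.20 with either treatment. WWTR1, the transcriptional co-activator TAZ, lies beyond TM4SF4 and had 0.06 ± 0.09 with vehicle and 0.26 ± 0.09 with 5-azacytidine. COMMD2 was higher in MG cells, by 0.70 ± 0.13 with vehicle and 0.79 ± 0.14 with 5-azacytidine, but by 0.46 and 0.52 with normexp correction, short of 1.5-fold.

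**Figure D2:**
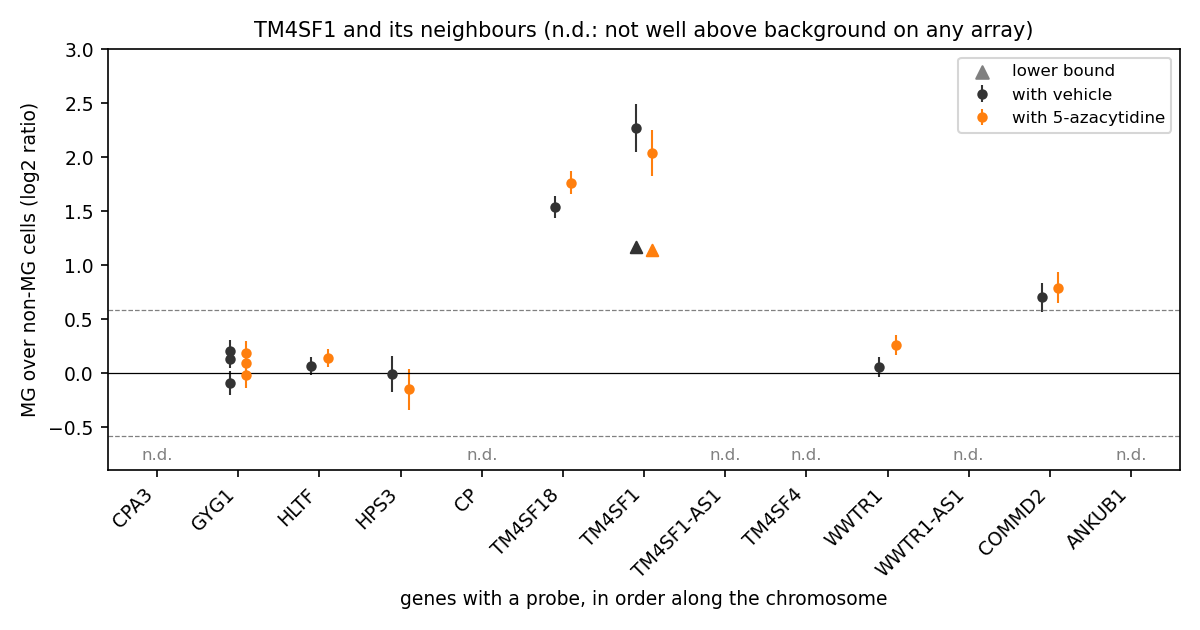
Log2 MG/non-MG ratio (vertical axis) for TM4SF1 and the 6 genes with a probe on each side, in chromosomal order (horizontal axis, not to scale). Points are probes measured on all 4 arrays with their spot error, triangles are lower bounds of the second TM4SF1 probe, and dashed lines mark 1.5-fold. The points of TM4SF18 and TM4SF1 stand at 1.5 or above, with the triangles of TM4SF1 below them and above the upper dashed line. COMMD2 stands at 0.70 and 0.79, and the others lie between -0.15 and 0.26.

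TSPAN8, a tetraspanin of gastrointestinal epithelium and carcinomas, was detected in MG cells only. Its probe had an intensity of 2.23 and 2.05 on the non-MG arrays, not well above background, and of 18.6 and 19.8 on the MG arrays. It was at least 1.64-fold higher in MG cells with vehicle and at least 1.55-fold higher with 5-azacytidine. The MG signal is itself less than 2 times the lowest signal called well above background there, so the size of the difference is not known beyond this bound.

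TSPAN1, an epithelial tetraspanin, was lower in MG cells. Its intensity was 1222 in non-MG cells with vehicle and 850 with 5-azacytidine. In MG cells it was 595 with vehicle and 647 with 5-azacytidine. The log2 MG/non-MG ratio was -1.22 ± 0.08 with vehicle, 2.33-fold lower and rank 122 from the lowest of all genes. With 5-azacytidine it was -0.75 ± 0.08, 1.69-fold lower and rank 584 from the lowest. The second value did not pass 1.5-fold with normexp correction (-0.54) or with the arrays centred on their medians (-0.50), while the first was -1.02 with each. Of the 11 epithelial markers measured, 0 were higher and 3 lower past 1.5-fold in MG cells with vehicle, beside 13.9% of all genes, and 1 was higher and 2 lower with 5-azacytidine, beside 13.1%. Their part in the TSPAN1 difference was not tested.

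The 5 broadly expressed tetraspanins, CD9, CD63, CD81, CD82 and CD151, lay within 1.5-fold between the cell types with either treatment. CD82, also called KAI1 and known as a metastasis suppressor, came nearest to the threshold. Its intensity was 170, 138, 139 and 143 in the order non-MG vehicle, non-MG 5-azacytidine, MG vehicle and MG 5-azacytidine. The log2 MG/non-MG ratio was -0.47 ± 0.11 with vehicle and -0.31 ± 0.11 with 5-azacytidine, and the second was -0.05 with median centring. CD9, a partner of integrins and of the fusion machinery of gametes, had intensities of 1085, 869, 1191 and 1323 in the same order. Its ratios were -0.05 ± 0.08 with vehicle and 0.25 ± 0.08 with 5-azacytidine.

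CD63, the tetraspanin of late endosomes and lysosomes, had intensities of 9574, 8084, 12168 and 11918 in that order. Its MG/non-MG ratios were 0.16 ± 0.07 with vehicle and 0.20 ± 0.07 with 5-azacytidine, in the same direction but small. CD151, which binds laminin-binding integrins, had intensities of 13846, 10594, 15167 and 14759. Its ratios were -0.05 ± 0.07 and 0.12 ± 0.07, and the first was 0.15 with median centring, so no direction is given.

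CD81, a co-receptor of B cells and a marker of exosomes, was measured by 2 probes that disagree. Probe A_23_P13425 had intensities of 5930, 5014, 4926 and 6849 in the same order, and MG/non-MG ratios of -0.45 ± 0.06 with vehicle and 0.09 ± 0.06 with 5-azacytidine. Probe A_33_P3373375 had 4798, 4620, 5149 and 5373, and ratios of -0.08 and -0.14. The mean over both was -0.26 ± 0.05 with vehicle and -0.03 ± 0.05 with 5-azacytidine.

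Between the cell types, 2 of the 7 measured members passed 1.5-fold with vehicle, where 13.9% of all genes did, and 2 of 7 with 5-azacytidine, where 13.1% did. With each treatment these were TM4SF1, higher in MG cells, and TSPAN1, lower. Since TM4SF1 was picked on these ratios, nothing is read from the counts. The median log2 ratio of the 7 members was -0.05 with vehicle and 0.12 with 5-azacytidine, beside -0.01 and 0.02 over all genes. These comparisons have no array in common.

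**Figure D3:**
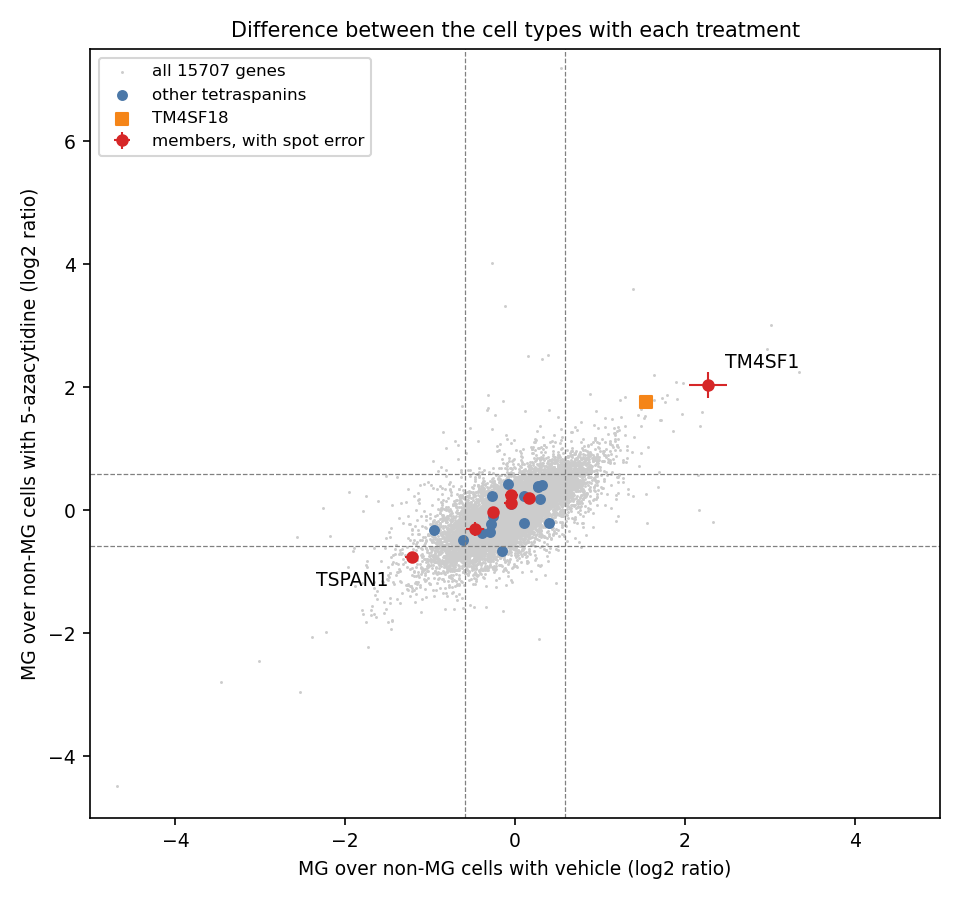
Log2 MG/non-MG ratio with vehicle (horizontal axis) and with 5-azacytidine (vertical axis) for 15707 genes in grey, other tetraspanins in blue, TM4SF18 as an orange square and the 7 measured members in red with their spot error. Dashed lines mark 1.5-fold. TM4SF1 lies at 2.27 and 2.04 and TM4SF18 near it, TSPAN1 lies at -1.22 and -0.75, and the other members lie inside the central square.

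The question of the drug treatment was whether 5-azacytidine changed these genes within a cell type. It moved none of the 7 measured members past 1.5-fold, in MG cells (0 of 7, beside 5.12% of all genes) or in non-MG cells (0 of 7, beside 3.58%). With shares this low, 0 of 7 is unremarkable, and nothing is read from these counts. The median of the members was 0.10 in MG and -0.09 in non-MG cells, beside -0.02 and -0.04 over all genes. These comparisons use the same arrays as those between the cell types.

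For TM4SF1, the log2 ratio of treated to vehicle cells was 0.10 ± 0.12 in MG cells, inside the spot error, and 0.33 ± 0.29 in non-MG cells. The second probe had 0.17 ± 0.26 in MG cells. In the order of its 4 levels, non-MG vehicle was lowest and MG 5-azacytidine highest, and the 2 MG arrays did not differ beyond the spot error. TSPAN8 had 0.12 ± 0.32 in MG cells and gives no value in non-MG cells. TM4SF18 had -0.17 ± 0.09 in MG cells and -0.40 ± 0.12 in non-MG cells, each within 1.5-fold.

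TSPAN1 had a log2 ratio of 5-azacytidine over vehicle of 0.15 ± 0.08 in MG cells and of -0.31 ± 0.08 in non-MG cells, so the 2 cell types lay closer together after the drug. CD9 had 0.18 ± 0.07 in MG cells and -0.11 ± 0.08 in non-MG cells. CD81 had 0.51 ± 0.06 in MG cells by probe A_23_P13425 and 0.09 ± 0.06 by the other probe, and -0.03 and 0.16 in non-MG cells. CD63, CD82 and CD151 lay between -0.01 and 0.08 in MG cells and between -0.18 and -0.03 in non-MG cells. All these values are within 1.5-fold.

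**Figure D4:**
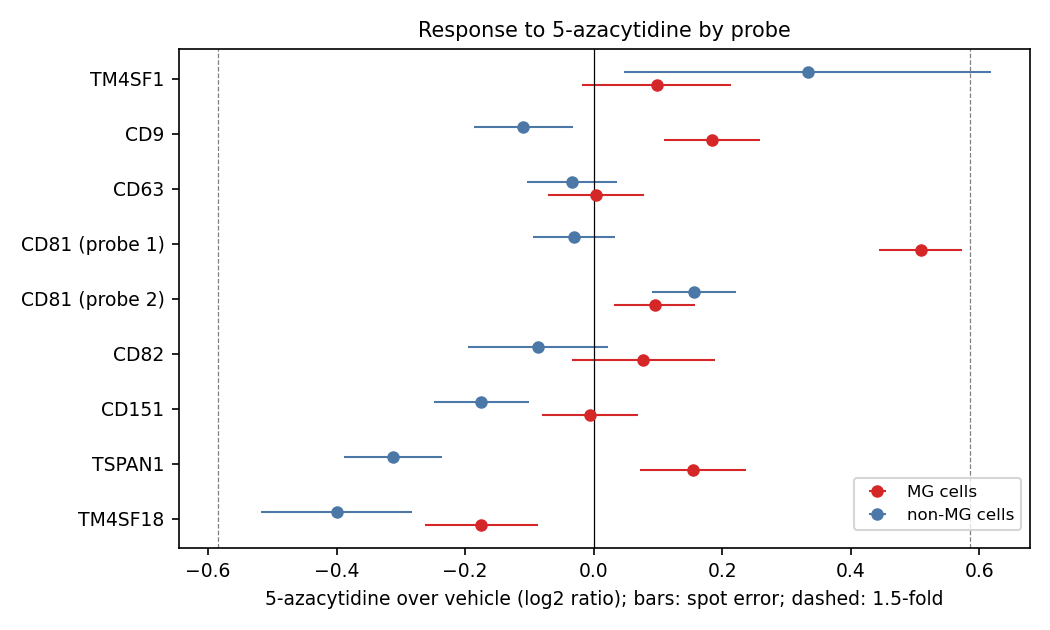
Log2 ratio of 5-azacytidine over vehicle (horizontal axis) for each member probe measured on all 4 arrays and for TM4SF18, in MG cells (red) and non-MG cells (blue). Bars are the spot error and dashed lines mark 1.5-fold. All points lie between the dashed lines, and CD9 and TSPAN1 have their points on opposite sides of 0 with bars that do not reach 0. CD63, CD82 and the first CD81 probe also have points on opposite sides, with at least 1 bar across 0.

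Of 26 other tetraspanins, 17 were measured on all 4 arrays. With vehicle, 0 were higher and 2 lower past 1.5-fold in MG cells, against 892 higher and 1295 lower of all 15707 genes. The lower genes were UPK1A, a uroplakin of bladder epithelium, at -0.96 ± 0.21, and TSPAN13 at -0.61 ± 0.10. With 5-azacytidine, 0 were higher and 1 lower, against 902 higher and 1151 lower of all genes. The lower gene was TSPAN12, a co-receptor of Norrin signalling, at -0.67 ± 0.17. With normexp correction none of these 3 passed 1.5-fold, and with median centring UPK1A alone did (-0.76). The median of the list was -0.09 with each treatment. TSPAN10 was higher with 5-azacytidine in MG cells, at 0.77 ± 0.20, but its 2 probes are dim, and with normexp correction the value was 0.24. The 4 probes of TSPAN14 had MG/non-MG ratios with vehicle from -0.73 to 0.69. The highest MG/non-MG ratio on the list was 0.39 with vehicle and 0.42 with 5-azacytidine. The list does not hold the member tetraspanins, such as TSPAN8. TM4SF1 was picked on its ratios, so they are not set against this list.

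Of 35 partner proteins that tetraspanins are known to bind or organise, 32 were measured. With vehicle, 1 was higher and 4 lower past 1.5-fold in MG cells, and with 5-azacytidine 3 were higher and 1 lower, beside 13.9% and 13.1% of all genes in either direction. SDC1, a heparan sulphate proteoglycan, was the higher gene with both treatments. Its intensity was 786 in non-MG cells with vehicle, 943 in non-MG cells with 5-azacytidine, 1520 in MG cells with vehicle and 2044 in MG cells with 5-azacytidine. The log2 MG/non-MG ratio was 0.77 ± 0.08 with vehicle and 0.76 ± 0.07 with 5-azacytidine. Its log2 ratio of 5-azacytidine to vehicle was 0.46 in MG and 0.47 in non-MG cells, alike but within 1.5-fold.

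ITGA3, the integrin chain that pairs most tightly with CD151, was lower in MG cells by both comparisons, with log2 ratios of -0.74 ± 0.08 and -0.65 ± 0.08. EGFR, the epidermal growth factor receptor, had -0.90 ± 0.11 with vehicle and -0.51 ± 0.11 with 5-azacytidine as the mean of 2 probes. PRKCA, a protein kinase C that tetraspanins recruit, had -0.71 ± 0.08 with vehicle and -0.56 ± 0.09 with 5-azacytidine. CDH1, or E-cadherin, had -0.66 ± 0.08 and -0.49 ± 0.08. The paper describes CDH1 mRNA as unchanged in MG cells, on the array and by quantitative PCR. With median centring ITGA3, PRKCA and CDH1 did not pass 1.5-fold with vehicle (-0.54, -0.52 and -0.47), and neither did ITGA3 with 5-azacytidine (-0.39). With normexp correction EGFR, ITGA3 and CDH1 did not pass it with vehicle (-0.49, -0.56 and -0.55). CD59, a complement inhibitor, was higher with 5-azacytidine alone, at 0.69 ± 0.20, and at 0.28 with normexp correction. The medians of the partners were -0.07 with vehicle and 0.05 with 5-azacytidine.

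All 19 genes of exosome release and endosomal sorting were measured, and their medians were 0.19 with vehicle and 0.14 with 5-azacytidine for the MG/non-MG ratio. With vehicle, 0 passed 1.5-fold, beside 13.9% of all genes. RAB35 and SMPD3 lay just below it at 0.56 and 0.58, and with median centring they passed it, at 0.75 and 0.78. With normexp correction they were 0.60 and 0.25, and with quantile normalization 0.50 and 0.64, so in each of these 1 of them fell short. With 5-azacytidine 2 were higher, beside 13.1% of all genes in either direction, CHMP4B, a subunit of the ESCRT-III filament, at 0.77 ± 0.08, and RAB35, a GTPase of endosome recycling, at 0.70 ± 0.08. SMPD3, a neutral sphingomyelinase of exosome budding, was higher with 5-azacytidine in both cell types, by 0.64 ± 0.14 in MG and 0.90 ± 0.18 in non-MG cells. Its intensity was 39.0, 62.8, 66.2 and 101 in the order non-MG vehicle, non-MG 5-azacytidine, MG vehicle and MG 5-azacytidine, and with normexp correction its ratios were 0.43 and 0.44.

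**Figure D5:**
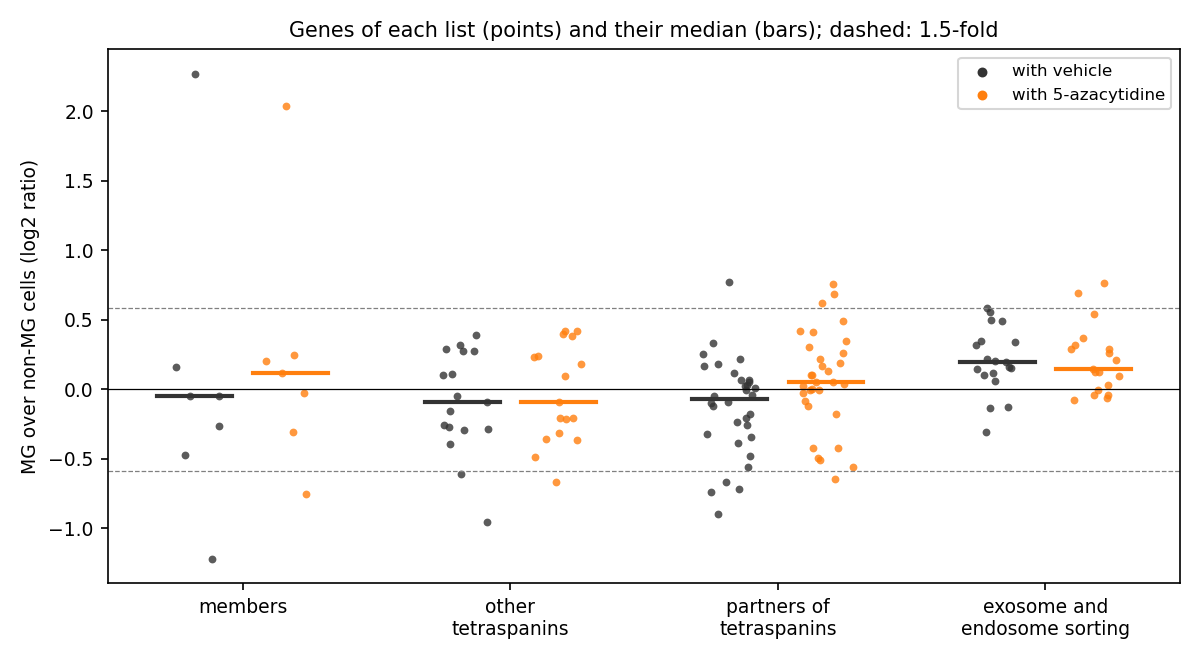
Log2 MG/non-MG ratio (vertical axis) for the members, the other tetraspanins, the tetraspanin partners and the exosome and endosome genes, with vehicle in black and with 5-azacytidine in orange. Each point is a gene, the bar is the median of the list, and dashed lines mark 1.5-fold. TM4SF1 is the high point among the members, and the medians of these 4 lists lie between -0.09 and 0.19.

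The genes whose pattern over the 4 arrays was nearest to that of TM4SF1 were VCAN, CEACAM1, ANXA8L1, NRIP1 and PLK2. Likeness was the Euclidean distance between log2 values centred on their own mean, over 4 arrays and 12750 other named genes, and the distances were 0.30, 0.35, 0.38, 0.42 and 0.44. VCAN encodes versican, a matrix proteoglycan, and its log2 MG/non-MG ratio was 1.91 with vehicle and 1.82 with 5-azacytidine. CEACAM1, a cell adhesion molecule, had 2.21 and 1.60. ANXA8L1, an annexin, had 2.63 and 2.41, and it has near-identical copies whose transcripts its probe may share. NRIP1, a nuclear receptor corepressor, had 1.98 and 2.07, and PLK2, a polo-like kinase, had 1.77 and 1.77. With normexp correction the MG/non-MG ratios with vehicle and with 5-azacytidine were 1.04 and 0.98 for VCAN, 1.18 and 0.83 for CEACAM1, 1.11 and 0.94 for ANXA8L1, 0.84 and 0.74 for NRIP1, and 1.65 and 1.69 for PLK2. Each had 5-azacytidine ratios between -0.25 and 0.42 in either cell type.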

How the data were processed

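Expression was measured in HCT116 MG and non-MG cells with vehicle or 5-azacytidine, 1 array each. The authors deposited Agilent Feature Extraction 11.5.1.1 output, in which every spot has a background-corrected intensity on a linear scale without normalization between arrays. They also deposited a log2 table, centred per probe on the median of the 4 arrays. The methods name GeneSpring and a filter on the lowest 20th percentile. RNA came from RNAiso Plus reagent per the labels and from an RNeasy kit per the methods.

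Conditions came from the sample labels. Control and outlier spots were left out (5 of 50599 probes), spots of a probe were averaged, and the 75th percentile of log2 intensity was subtracted. Probes were named by RefSeq accession (30000 of 50594, or 59.3%), and probes well above background on all 4 arrays were averaged per gene. Probe coordinates belong to an older build and are not given. The counting of genes past 1.5-fold was checked on simulated data.

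The members and gene lists were chosen with earlier results of these data known. The genes named are all members, from each other list at most the 6 with the largest ratio past 1.5-fold, and the 5 nearest to TM4SF1 in pattern. Of the blood and endothelial markers, 1 is not reported here. COMMD2, WWTR1 and the other neighbours were added after their values were seen. Alternatives were normexp correction with an offset of 50 (on the median spot intensity), quantile normalization, median centring, the methods' filter, no filter, the brightest probe, signals raised to the detection limit, the authors' table, and thresholds of 2-fold and 1.4-fold. Normexp was run in limma 3.58.1 under R 4.3.3, and the rest in Python 3.11.15 (pandas 2.3.3, numpy 2.4.6), with plots by matplotlib 3.10.9.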

Additional observations from a re-analysis of the deposited data

Results flagged for a closer look

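CD9 and TSPAN1 had 5-azacytidine ratios of opposite sign in the 2 cell types, each beyond its spot error. TSPAN1 was higher with the drug in MG cells and lower in non-MG cells, and the difference of the 2 log2 ratios was 0.47 ± 0.11. For CD9 it was 0.29 ± 0.11, in the same sense. A positive difference was not particular to these 2 genes. CD81 probe A_23_P13425 had a larger one, 0.54 ± 0.09, and the other CD81 probe had -0.06 ± 0.09. CD63, CD82 and CD151 had 0.04 ± 0.10, 0.16 ± 0.16 and 0.17 ± 0.11, and TM4SF1 had -0.23 ± 0.31. How many of all genes have ratios of opposite sign beyond the spot error was not counted. The signs of CD9 and TSPAN1 held under normexp correction, quantile normalization and median centring. There the CD9 ratio in non-MG cells lay between -0.23 and -0.03 and that of TSPAN1 in MG cells between 0.08 and 0.16. Not all stayed beyond the spot error. CD9 in non-MG cells was -0.034 with quantile normalization, inside 0.077, and TSPAN1 in MG cells was 0.077 with normexp correction, inside 0.083. These differences were not tested, since each condition has 1 array.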

How the results depend on the processing

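The ratio of TM4SF1 between the cell types kept its direction under every alternative run and stayed past 1.5-fold, but its size moved. With vehicle it was 0.90 with normexp correction, 2.83 with no filter and 2.83 in the authors' table, against 2.27. With 5-azacytidine it was 0.78 with normexp correction, 2.29 with median centring, 2.65 with no filter and 2.65 in the authors' table, against 2.04. With no filter and in the authors' table the dim second probe is averaged in, at signals that give only a bound. With 5-azacytidine, the count of members past 1.5-fold was 1 with normexp correction, 1 with median centring and 1 at a threshold of 2-fold, TM4SF1 in each case. With no filter and in the authors' table TSPAN8 was counted as well, which gave 3 with each treatment. The other 62 values moved by less than the spot error, or by at most 1.5 times for counts. Not all of them could move. Raising signals to the detection limit does not alter probes that pass on all arrays. TM4SF1 has 1 such probe, which is also its brightest, and the methods' filter kept that same probe. The 62 are therefore not a measure of stability. No member passed 1.5-fold with 5-azacytidine within a cell type under any of these alternatives.

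Median centring moved the median of all genes between the cell types from -0.01 to 0.18 with vehicle and from 0.02 to 0.27 with 5-azacytidine. It raised the ratios, so negative ratios nearer to 0 than this shift change sign with it and have no settled sign. The authors' table differs from the arrays by a fixed offset for each comparison, within 0.01 for 100% of 24161 probes, and TM4SF4 and TM4SF5 are not in it. A block for the slide was not run, because there is 1 slide. No paired analysis was possible because each condition has 1 array. Signal over background limits TM4SF1 in non-MG cells, TSPAN8, TM4SF4 and TM4SF5, and 4 arrays limit every ratio.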
